A study of Drosophila melanogaster with 4 samples.

Results

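Transcripts of 8 genes of glial identity and function were measured in RNA precipitated with the RNA-binding protein LARK and in total RNA from the same brain lysates. The genes were repo (CG31240), gcm (CG12245), Gs2 (CG1743), Eaat1 (CG3747), Eaat2 (CG3159), loco (CG5248), wrapper (CG10382) and drpr (CG2086), chosen by name from what is known of glia, and every probe set annotated to 1 of them alone was taken. Of the 8 genes, among 10844 with a probe set of their own on the array, 7 had at least 1 and Eaat1 had none, which left 9 probe sets. The tissue was hand-dissected brain of pharate adults, the stage shortly before the fly leaves its pupal case, of the wild-type strain Canton-S of Drosophila melanogaster, with about 1000 brains pooled for each immunoprecipitation. LARK IP was RNA precipitated with an affinity-purified anti-LARK antibody from such a lysate, and total RNA was taken from a part of the same lysate set aside before. By the study's methods the precipitate was washed mildly and equal amounts of RNA were labelled. Each of 2 experiments gave 1 LARK IP array and 1 total RNA array, hybridised in 1 session per experiment.

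Glia of the fly brain wrap neurons and their processes, form the barrier between blood and brain, take up transmitter from synapses and clear debris. Their fate is set by the transcription factor gcm, which acts briefly in precursors and switches on repo, a homeodomain factor that nearly all glia then keep. Glutamate released by neurons is taken up by transporters of the EAAT family and turned into glutamine by glutamine synthetase. The design asks which transcripts LARK IP held at a higher level than total RNA did, and that question was put to these genes.

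Values are MAS5 signals, scaled on each array to 1 common target, so a signal is relative to the rest of the labelled RNA and does not tell how much RNA was precipitated. In total RNA of a whole brain, fewer cells of a type and less RNA per cell cannot be told apart. A signal was called above background if it exceeded 8.165, the 95th percentile of 97 probe sets for genes of eggshell, cuticle, salivary glue, sperm, accessory gland and odorant receptors, and 17.6% to 18.4% of probe sets did so on each array. Of the 9 glial probe sets, 4 were above background on all 4 arrays (repo, Gs2, Eaat2 and the brighter probe set of drpr), against 9.74% of all probe sets. The 3 that did so on 0 arrays were those of wrapper and gcm and the dimmer one of drpr. Log2 ratios were taken on log2(signal + 0.8), and are given with their SD over the 2 experiments. Those of the 3492 brightest probe sets, 25% of all, were tested with limma with the experiment as a block.

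**Figure D1:**
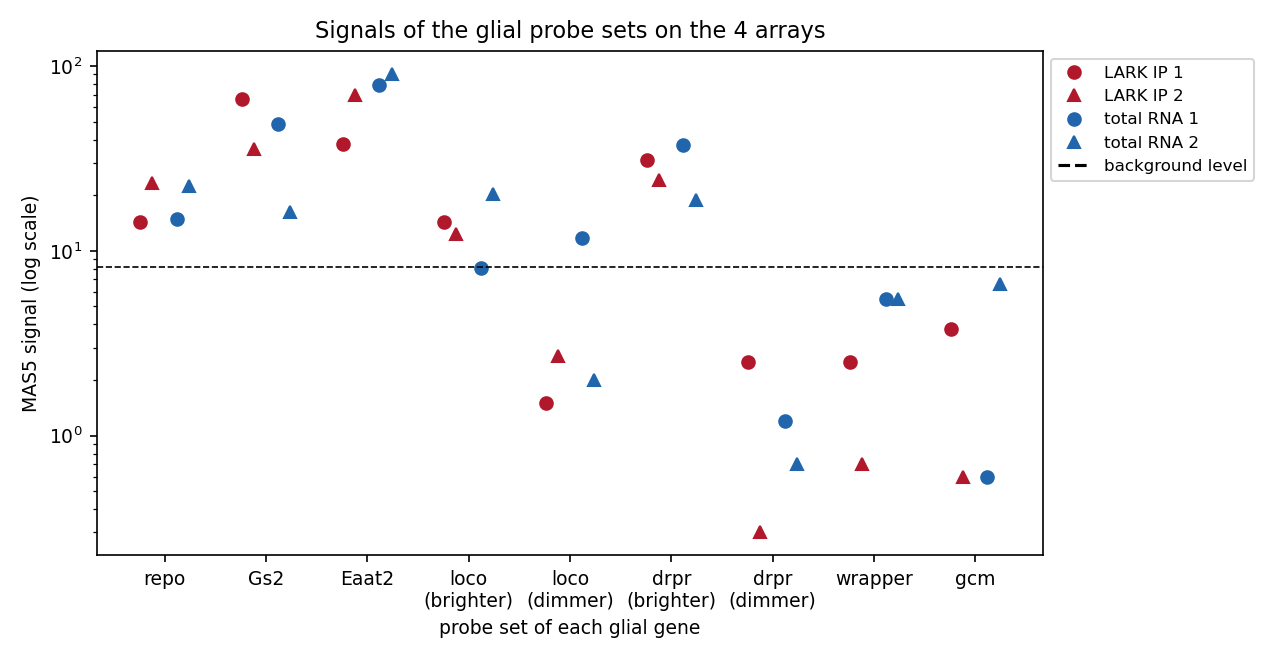
MAS5 signal (log scale) of each glial probe set on LARK IP (red, left) and total RNA (blue, right) arrays, with circles for experiment 1, triangles for experiment 2 and the background level of 8.165 as a dashed line. The signals of Eaat2 on the LARK IP arrays, 37.7 and 69.3, are both below those on the total RNA arrays, while wrapper, gcm and the dimmer probe set of drpr lie under the line on all 4 arrays.

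None of the 5 glial genes that could be tested, repo, Gs2, Eaat2, loco and drpr, differed between LARK IP and total RNA in limma at an adjusted p under 0.05. This compares with 94 probe sets that rose, 2.69% of those tested, and 6 that fell, 0.172%, or 2.86% together, so among 5 genes a count of 0 says little. With any 1 array left out, 0 of all tested probe sets were called. At an unadjusted p under 0.05 there were 2 of the 5, Gs2 and Eaat2, with ratios of opposite sign, against 12% of all tested probe sets. Gs2 was the 1 member with a positive ratio in both experiments (27.1% of all tested probe sets) and Eaat2 the 1 with a negative ratio in both (30.7%). The median log2 ratio of the 5 was 0.04, beside -0.04 over the 2884 genes tested.

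The transcription factor repo, which marks differentiated glia, gave signals of 14.3 and 23.3 in LARK IP against 14.9 and 22.5 in total RNA. The groups overlapped almost fully, and within each experiment IP and total RNA were close. The log2 ratios were -0.06 and 0.05 in experiments 1 and 2, with a mean of -0.0038 ± 0.07 (SD, n = 2; adjusted p = 0.996, limma). The 95% interval of the fit, -0.69 to 0.68, still allows a ratio of either sign. For gcm, which starts the glial programme in the embryo and also acts in precursors of blood cells, signals were 3.8 and 0.6 in LARK IP against 0.6 and 6.6 in total RNA. All were under background, so no ratio can be read for gcm.

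The largest ratios among the 5 tested members were those of Gs2 and Eaat2, in opposite directions. Gs2 encodes a glutamine synthetase, the enzyme with which glia turn glutamate into glutamine. Its signals were 65.9 and 35.5 in LARK IP against 48.8 and 16.3 in total RNA. The IP signal was the higher one within each experiment, yet the groups overlapped, since total RNA of experiment 1 lay above IP of experiment 2. The ratios were 1.35 and 2.18 without a pseudocount, and the log2 ratio was 0.76 ± 0.47 (SD, n = 2), with a 95% interval of 0.15 to 1.36 and an adjusted p of 0.263 (limma). The value turned on total RNA of experiment 2: the log2 ratio was -0.012 without that array and 1.53 without total RNA of experiment 1, in fits that ignore the pairing. It was 0.32 without LARK IP of experiment 1 and 1.20 without that of experiment 2.

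Eaat2, a transporter of the EAAT family that takes up aspartate and taurine, showed the opposite sign. Its signals were 37.7 and 69.3 in LARK IP against 78.5 and 90.8 in total RNA. Both IP signals were below both total RNA signals, which held for 17.4% of all tested probe sets. The log2 ratios were -1.04 and -0.39, with a mean of -0.71 ± 0.46 (SD, n = 2), a 95% interval of -1.27 to -0.16 and an adjusted p of 0.249 (limma). The ratio was below 0 in all 12 other settings tried, but in most of them this was fixed in advance. Filters, trend and block do not enter the ratio. With both IP signals below both total RNA signals, other pseudocounts and leaving out 1 array cannot reverse the sign. Only quantile normalization could have, and there the log2 ratio was -0.94. The ratio was -0.28 without LARK IP of experiment 1 and -1.15 without that of experiment 2, again in fits that ignore the pairing. Eaat1, the glutamate transporter of astrocyte-like glia, could not be measured through a probe set named for it alone. The ratios of Gs2 and Eaat2 differed by sign in each experiment, but this pair was picked for its values and the difference was not tested.

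The gene loco encodes a regulator of G protein signalling that glia need for the barrier around the nervous system. Its brighter probe set had signals of 14.4 and 12.4 in LARK IP against 8.1 and 20.3 in total RNA. Total RNA was the more variable group here, with the lowest signal, which was under background, and the highest one. The log2 ratios pointed in opposite directions, 0.77 in experiment 1 and -0.68 in experiment 2, with a mean of 0.05 ± 1.02 (SD, n = 2; adjusted p = 0.993, limma). The dimmer probe set of loco read 1.5 and 2.7 in LARK IP against 11.7 and 2.0 in total RNA. Only total RNA of experiment 1 was above background, and it was the array on which the brighter set was lowest, so the 2 probe sets disagreed in that experiment. The dimmer set was not tested.

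Engulfment was represented by drpr, the receptor with which glia recognise and clear degenerating axons. Its brighter probe set, which is marked as one that may share probes with other transcripts, gave 30.8 and 24.3 in LARK IP against 37.2 and 18.9 in total RNA. The IP signals lay between the total RNA signals. The log2 ratios were -0.27 and 0.35, and their mean was 0.04 ± 0.44 (SD, n = 2; 95% interval -0.60 to 0.69; adjusted p = 0.986, limma). The other probe set of drpr had signals between 0.3 and 2.5, all under background. For wrapper, an immunoglobulin-family surface protein of midline and cortex glia that enclose axons and cell bodies, signals were 2.5 and 0.7 in LARK IP against 5.5 and 5.5 in total RNA. IP was the dimmer group, but at or under background on all 4 arrays wrapper has no ratio that can be read.

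A 2-fold criterion was put to the signals as given, in each experiment on its own, with the higher signal above background. The members' counts were too small to tell whether they differ from the shares of all probe sets. In experiment 2, Gs2 alone had an IP signal at least 2-fold above total RNA, among 5 glial probe sets with an IP signal above background, and 18.4% of all such probe sets did so. In experiment 1 there were 0 of 5 (19.6% of all). In the other direction, Eaat2 and the dimmer set of loco were at least 2-fold lower in IP in experiment 1, 2 of 5 with total RNA above background (16.7% of all), and in experiment 2 there were 0 of 5 (16% of all). The IP signal of the dimmer loco set was under background, so its place in that count gives no ratio that can be read, which leaves Eaat2. No glial probe set passed in both experiments, in either direction, against 7.86% of all for higher and 2.35% for lower.

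**Figure D2:**
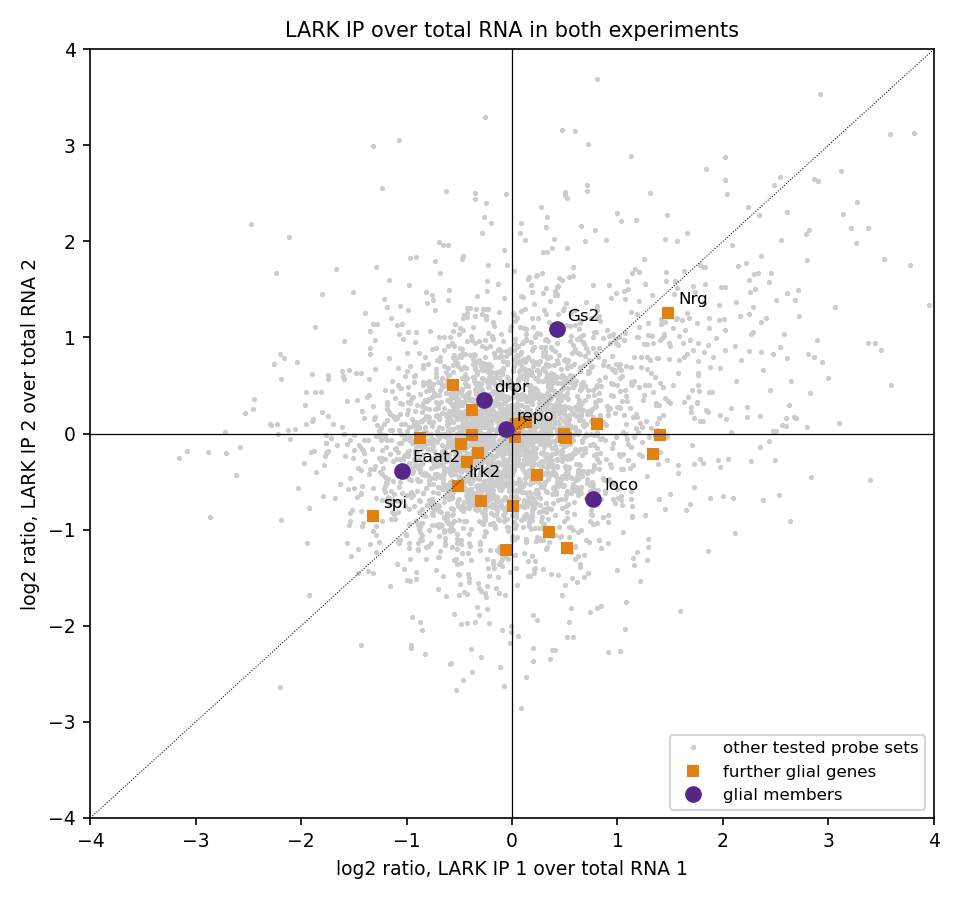
Log2 ratio of LARK IP over total RNA in experiment 1 (x axis) and experiment 2 (y axis) for the glial members (purple circles), further glial genes (orange squares) and the other tested probe sets (grey points; 3 lie beyond the axes), with equal ratios on the dotted line. Gs2 at 0.43 and 1.09 and Eaat2 at -1.04 and -0.39 are the members farthest from the origin with the same sign in both experiments, and loco has opposite signs.

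Many genes shared such ratios. For Gs2, 28 other tested genes lay within a distance of 0.25 in the pair of log2 ratios, over 2 pairs of arrays, and the nearest were CG11379, CG9444 and CG17233. For Eaat2 there were 54, nearest htk, Zip102B and CG7781. For repo there were 248, nearest CG6126, CG10747 and Uxs. For loco the number was 44 and for drpr 167.

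A wider list of 79 gene symbols of glial development and function was set beside the members, of which 56 had a probe set of their own and 25 could be tested, each by its brightest probe set. Many of them, such as Nrg, spi, pros and fra, are also used by neurons. None of the 25 passed in limma, beside 2.86% of all tested probe sets. In the same fit 2, spi and Nrg, had an unadjusted p under 0.05, against 12% of all, so both counts say little. The median log2 ratio was -0.10, beside -0.04 over the 2884 genes tested. It was -0.26 over the 15 that had a level above background in both groups, with no like median over all genes to set beside it. In the remaining 10, at least 1 of the groups was at or under background on both its arrays. Of the 31 matched genes that could not be tested, Nrx-IV, Tret1-1 and Gat exceeded background on 1 array each, and the rest on none.

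Genes of gliogenesis had 3 tested members of 16 listed. The ligand spi, which activates the EGF receptor, gave 11.7 and 5.6 in LARK IP against 30.4 and 10.8 in total RNA. It was lower in IP in both experiments (log2 ratio -1.09 ± 0.33, SD, n = 2, and adjusted p = 0.225, limma). The IP signal of spi in experiment 2 was under background, so the size of that ratio is uncertain. For pros, a homeodomain factor that also acts in glial precursors, signals were 8.2 and 9.4 in LARK IP against 2.6 and 9.5 in total RNA. The log2 ratios were 1.40 and -0.014 (mean 0.70), so the ratio came from experiment 1 alone. In that experiment total RNA was under background and IP barely above it, and pros did not pass.

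Of 19 genes of septate junctions and the blood-brain barrier, 6 were tested. Neuroglian (Nrg), an L1-type adhesion molecule of axons and glia, had 10.1 and 15.7 in LARK IP against 3.1 and 6.1 in total RNA. Both IP signals were above both total RNA signals, as in 15.4% of tested probe sets, and since total RNA lay under background the difference is at least 1.50-fold (adjusted p = 0.215, limma). Lac, another immunoglobulin-family protein of these junctions, had 7.9 and 6.3 in LARK IP against 10.9 and 7.9 in total RNA (adjusted p = 0.802, limma). Only total RNA of experiment 1 was above background, so little can be read from Lac. The sodium pump subunit gene nrv2, the brightest of the list, had 56.6 and 41.0 in LARK IP against 39.4 and 42.4 in total RNA, while moody, a receptor of barrier glia, and the transporter gene Mdr65 were under background on all 4 arrays.

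Transmitter recycling had 6 tested genes of 11 listed symbols, among which GABAT is a second spelling of Gabat. The log2 ratio was below 0 in all 6, with a median of -0.36, against 53.9% of all tested probe sets below 0. For Gabat, the GABA transaminase, it was -0.0024 and thus near 0, and Gs2, with a ratio above 0, is counted among the members and not in this list. It was below 0 in both experiments in 3 of them, against 30.7% of all tested probe sets. Gdh, glutamate dehydrogenase, read 42.2 and 21.0 in LARK IP against 44.0 and 49.8 in total RNA (-0.64 ± 0.82), a difference that arose in experiment 2. The transporter gene ine had 13.5 and 14.4 in LARK IP against 25.4 and 14.9 (-0.46 ± 0.58), and e, which encodes the enzyme that joins beta-alanine to histamine and dopamine, had 21.2 and 8.6 against 21.0 and 15.1 (-0.37 ± 0.55). Gs1, the other glutamine synthetase gene, gave 10.9 and 2.0 in LARK IP against 8.4 and 4.9 in total RNA (-0.34 ± 0.97). Its ratios had opposite signs, but both signals of experiment 2 were under background, so the ratio of that experiment cannot be read.

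In the remaining groups, 2 of 11 genes of engulfment, 5 of 14 of ions and metabolites and 3 of 8 of adhesion and astrocytes were tested. The adaptor Crk had 17.5 and 19.8 in LARK IP against 21.7 and 32.8 in total RNA (-0.50 ± 0.29), and the inward rectifier Irk2 had 16.4 and 15.4 against 23.7 and 22.8 (-0.53 ± 0.02). Irk2 was even between experiments, with both IP signals below both total RNA signals, but it did not pass either (adjusted p = 0.535, limma), and a second probe set of it was under background. The scavenger receptor crq had 11.1 and 4.8 in LARK IP against 3.9 and 5.7, and the netrin receptor fra lay under background on all arrays, so no fold is given for these 2 genes.

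**Figure D3:**
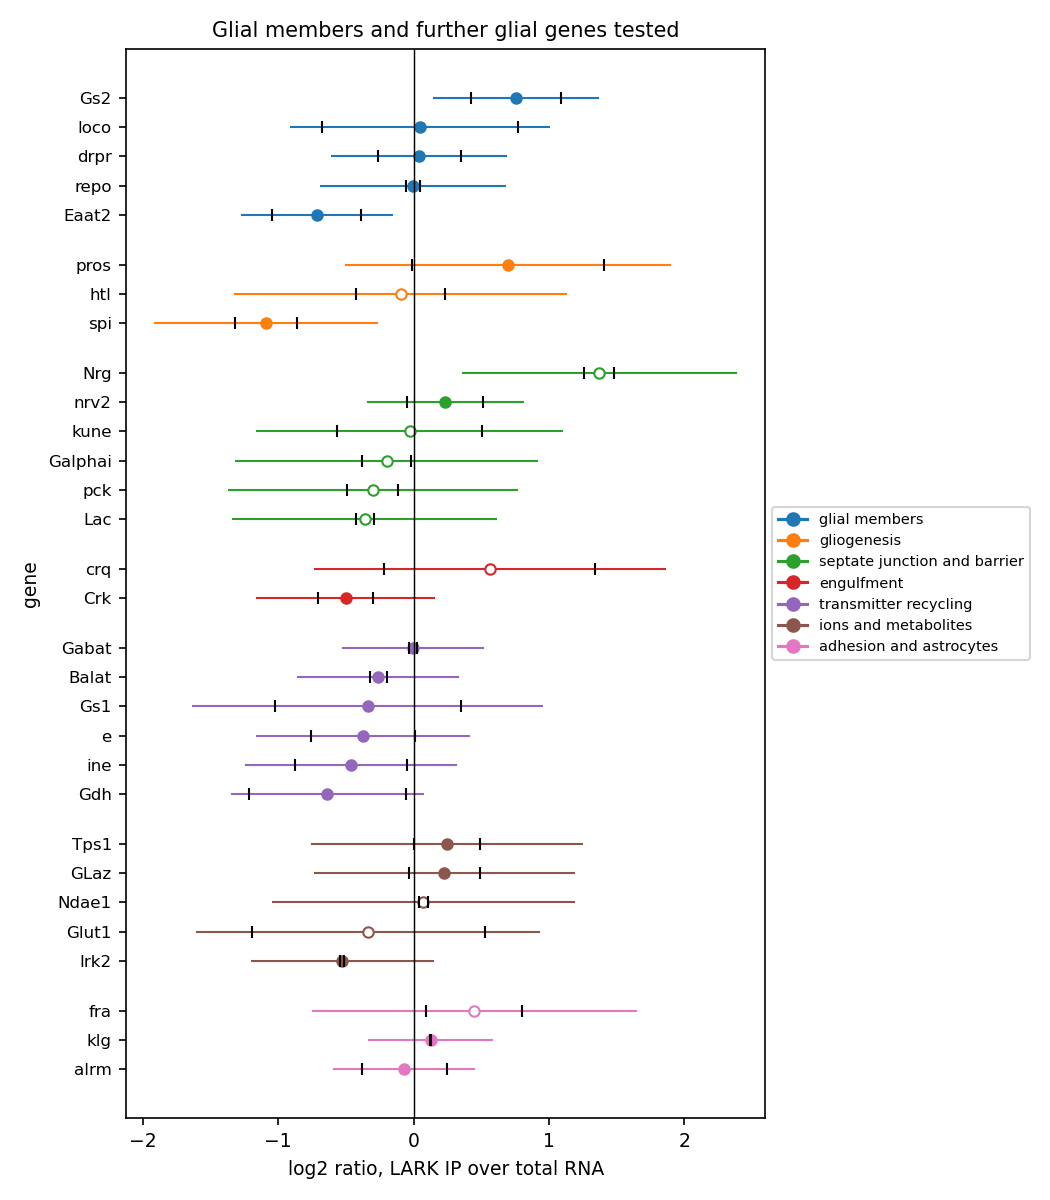
Log2 ratio of LARK IP over total RNA (x axis) for the 5 glial members and 25 further glial genes tested, by group; points are the means, coloured lines the 95% intervals of the limma fit, black ticks the 2 experiments, and open points mark genes at or under background in at least 1 group. Intervals of Gs2, Eaat2, spi and Nrg do not reach 0, and none of these genes passed after adjustment over all tested probe sets.

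Levels of glial genes also differed between the experiments, which was looked at after the values were seen and is described with no test, since each experiment is 1 lysate. The absolute difference between experiments exceeded the absolute mean log2 ratio in 4 of the 5 members and 14 of the 25 further genes. It did so in 56.2% of all tested probe sets. The difference had the same direction in IP and in total RNA in 4 of 5 and 18 of 25, against 62.5% of all. Among so few genes these counts cannot tell whether glial genes differ from the rest. Experiments differ in lysate, dissection and hybridisation session, which cannot be told apart.

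Gs2 read 35.5 in LARK IP and 16.3 in total RNA of experiment 2, against 65.9 and 48.8 in experiment 1, a mean log2 difference of -1.21. For alrm, a leucine-rich repeat protein made by astrocyte-like glia, signals were 107.3 in LARK IP and 90.4 in total RNA of experiment 2, against 168.5 and 220.2 in experiment 1 (-0.96). Opposite to both was klg, an immunoglobulin-family adhesion molecule, with 300.7 in LARK IP and 276.5 in total RNA of experiment 2, against 152.6 and 139.3 in experiment 1 (0.98). Its log2 ratio of IP over total RNA was 0.13 and 0.12 in experiments 1 and 2, so IP and total RNA were close in both. A second, dimmer probe set of klg was under background on all arrays.

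**Figure D4:**
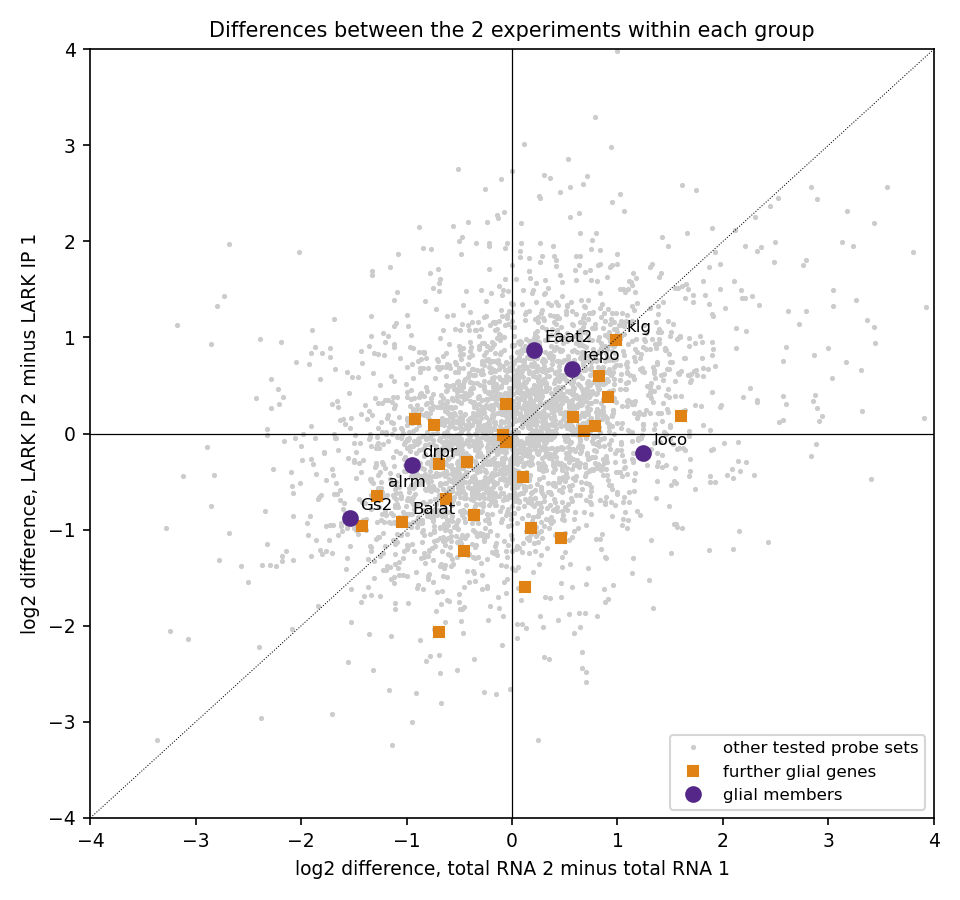
Log2 difference between experiment 2 and experiment 1 in total RNA (x axis) and in LARK IP (y axis) for the glial members (purple circles), further glial genes (orange squares) and the other tested probe sets (grey points; 1 lies beyond the axes). Gs2 and alrm lie far to the lower left, at -1.54 and -1.28 on the x axis, and klg to the upper right at 0.98 on both.

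Among the other members, the mean log2 difference between experiments 2 and 1 was -0.64 for drpr, 0.62 for repo and 0.54 for Eaat2. The sign thus differed among glial genes. The beta-alanine transporter gene Balat (-0.98) and Gabat (-0.65) had the sign of Gs2. So did Gs1 (-1.38) and spi (-1.20), while pros (0.89) and GLaz (0.64) had the other sign. Each of these last genes was under background on at least 1 array. All were picked after their values were seen.

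Markers of other cells were read on the same arrays. The summed signal of the 7 measured glial members was 169.4 and 166.1 in LARK IP against 193.6 and 180.9 in total RNA, lower in IP in both experiments. That order comes from Eaat2 alone: without it the sums were 131.7 and 96.8 in LARK IP against 115.1 and 90.1 in total RNA. The sum of 6 measured neuronal markers was 88.1 and 160.3 in LARK IP against 33.4 and 103.3 in total RNA, higher in IP in both and, within each group, higher in experiment 2. The 5 tested neuronal markers had a median log2 ratio of 1.26, beside -0.04 over the 2884 genes tested. Of the 5 markers, 3 were higher in IP in both experiments (27.1% of all tested probe sets) and 1, Rbp9, was lower in both (30.7%). Rbp9 had 7.1 and 15 in LARK IP against 8.1 and 26.1 in total RNA. The ratio of nSyb differed in sign, and total RNA of elav and nSyb was under background on both arrays. The sizes of these 2 ratios are thus uncertain, and so is the median, which is the value of elav. The microtubule-associated futsch rose, at 45.3 and 95.9 in LARK IP against 10.6 and 52.3 in total RNA (adjusted p = 0.0470, limma). The groups overlapped, since IP of experiment 1 lay below total RNA of experiment 2. In the fit without the block 0 of all probe sets were called, futsch included. Among the 5 tested markers futsch was the only call, against 2.86% of all tested probe sets. Among so few genes these counts say little. The gene futsch had the highest signal of the 6 on every array and so weighed most in the sums. Whether neuronal and glial genes differ in their ratios was not tested. Of 4 measured fat body genes, Lsp2, Fbp1 and Fbp2 were under background on all arrays and apolpp, the lipoprotein precursor, above it on all 4, at 8.9 and 11.3 in LARK IP against 11.2 and 15.2 in total RNA. The sum of the 4 was 15.9 and 14.3 in LARK IP against 26.9 and 26.2 in total RNA. Since 3 of the 4 genes were under background, no ratio can be read from that sum. Of 9 measured haemocyte genes, 4 (Hml, NimC1, srp and PPO1) were under background on all arrays and the rest above it on at least 1, among them PPO2, a prophenoloxidase, at 4.5 and 9.5 in LARK IP against 13.4 and 14.2 in total RNA. The sum of the 9 was 48.1 and 42.0 in LARK IP against 63.1 and 49.5 in total RNA, and crq among them is also in the glial list. With 4 of the 9 under background on all arrays, no ratio can be read from this sum either. Of 5 measured muscle genes, the myosin light chain gene Mlc2 was above background on all arrays, at 37.1 and 16.3 in LARK IP against 35.8 and 18.1 in total RNA, higher in experiment 1 in both groups like Gs2. Act88F passed background on 2 arrays and Tm2, up and Mlp60A on 0, with a sum of 52.4 and 34.6 in LARK IP against 49.9 and 37.4 in total RNA. The part of other tissue in the values of the glial genes was not tested.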

How the data were processed

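The deposited values are MAS5 signal intensities of probe sets on 4 DrosGenome1 arrays, scaled per array by the authors; with 2% trimmed from each end, every array averages 5. No detection calls were used. Hybridisation entries of the deposited settings files, which hold other settings than expression and no score, showed 1 session per experiment. After 44 controls were left out of 14010 probe sets, 13966 were annotated: 12443 with 1 symbol, 327 with several and 1196 with none, and 0 symbols needed an update against RefSeq. The 8 members and all lists were chosen with earlier results of these data known. The number of arrays limits the precision.

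Ratios used log2(signal + 0.8), 0.8 being the median over arrays of their 25th percentiles; the sum understates changes of low signals. limma 3.58.1 (R 4.3.3) was fitted with a variance trend and the experiment as a block to the probe sets in the top 25% of mean log2 signal, with Benjamini-Hochberg adjustment at 0.05, and was tested on simulated data. Pairing rests on the methods, by which both RNAs of an experiment came from 1 lysate; across tested probe sets the replicate differences of the groups had a Pearson's r of 0.36. With 1 residual degree of freedom, the fit leans on the spread of all tested probe sets, and p-values measure only the spread between 2 lysates (prior degrees of freedom 7.85). An exact two-sided permutation test of 2 arrays against 2 cannot go below p = 0.33. A gene was represented by its brightest probe set. Where 1 group was at or under background on both arrays, the fold was computed against the higher of background and signal on each array. It is a lower bound of the mean over the 2 experiments and leaves out the spread between them. Named further genes were those that passed, filled by the largest absolute ratios to 12; alrm, klg, nrv2, Balat, Gabat, moody, Mdr65, Nrx-IV, Tret1-1 and Gat were named after their values were seen. Alternatives were other pseudocounts, filters and normalization, no trend, no block, each array left out, and total RNA above background.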

Additional observations from a re-analysis of the deposited data

How the results depend on the processing

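The count of glial members called was 0 under all 12 alternatives of the fit, the replicate block included: without it the adjusted p was 0.987 for Gs2 and 0.971 for Eaat2, and 0 members, 0 further glial genes and 0 of all probe sets were called. Further glial genes called were also 0 throughout. Over all probe sets, 94 higher and 6 lower calls became 29 and 3 with quantile normalization and 1 and 0 without the trend. Fits with an array left out also had no block, so calls in them say little. Lower calls were 18 with 4 times the pseudocount, 0 with the top 15% filter and 15 where both total RNA signals were above background. The causes were not tested. Of the refitted ratios of single members, 52 kept their sign and 7 reversed. All 7 were with 1 array left out and the lone array assumed to vary like the others. The filters, the fit without the trend and the fit without the block cannot change a member's ratio, so their part of the 52 was fixed in advance. With an array left out, the ratios ranged between -0.34 and 0.33 for repo, -0.012 and 1.53 for Gs2, -1.15 and -0.28 for Eaat2, -0.57 and 0.67 for loco, and -0.43 and 0.52 for drpr. Without LARK IP 1, repo was 0.33, loco -0.05 and drpr -0.12; without total RNA 2, repo was 0.28, Gs2 -0.012 and drpr -0.43; without total RNA 1, loco was -0.57. The median of the members lay between -0.29 and 0.15 in these fits. With a floor at the top 15% of each array in place of background, the same counts of glial probe sets passed the 2-fold criterion. Signals at or under background limit gcm, wrapper and the dimmer sets of loco and drpr, for which no ratio can be read.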
